A study of Mus musculus with 23 samples.

Results

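Integrins, cadherins, desmosomal cadherins, tight junction proteins and connexins are the surface molecules that hold an epithelial tumour cell to its matrix and to its neighbours. The genes described here were chosen by symbol: every gene of a mouse amplicon panel whose name begins as an integrin chain, a numbered cadherin, a protocadherin, a desmocollin or desmoglein, a claudin, a tight junction protein, occludin or a connexin, with the leukocyte integrin genes Itgax and Itgb2 left out. Of the 3826 genes on the panel, 40 met this rule, and 32 of them had enough counts to be tested. No claudin symbol was among them, so the tight junction is represented by occludin and the scaffold proteins alone. The rule itself uses no measured value.

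The study set 12 mammary carcinomas of mice given abemaciclib, an inhibitor of the kinases CDK4 and CDK6, against 11 of mice given the vehicle (control). All 23 tumours arose in mice given doxycycline from the age of 6 weeks, a drug used to switch on transgenes, and abemaciclib was given at 90 mg/kg each day by gavage. The labels name neither the transgene, its promoter, the strain, the sex nor the animal behind each tumour, so p-values measure the spread between numbered tumours. Tumours were frozen after the 12th dose, and 1 short amplicon of about 110 bases stood for each gene. Libraries held 2756919 to 4990391 counts in abemaciclib and 3044380 to 4492736 counts in control tumours, and the 40 genes took 0.608% to 1.22% of them in abemaciclib and 0.624% to 1.19% in control tumours. Markers of dividing cells, 7 of 7 on the panel and all below 0 in log2 fold change (median -1.03), summed to 53.6 to 850 CPM in abemaciclib and 231 to 1205 CPM in control tumours, where CPM is counts per 1000000 counts of a library total scaled by TMM. The number of the 40 genes with at least 1 count was 34.5 ± 1.38 (SD, n = 12) in abemaciclib and 34.5 ± 1.04 (SD, n = 11) in control tumours. Counts of different amplicons are not on a common scale, so levels are compared between tumours and never between genes.

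An integrin is a pair of an alpha and a beta chain that spans the membrane. The alpha chain largely sets what is bound (laminin, collagen, proteins with an arginine-glycine-aspartate or RGD motif, or receptors on other cells), and the beta chain connects to the actin or keratin cytoskeleton. Classical cadherins bind their own kind on the next cell and hold catenins inside, and desmosomal cadherins do the same for keratin filaments. Occludin and the zonula occludens scaffolds seal the space between cells, and connexins form channels between them. In the mammary gland E-cadherin (Cdh1) marks luminal cells, P-cadherin (Cdh3) marks basal cells, and the laminin receptor built from Itga6 and Itgb4 anchors basal cells to the basement membrane.

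The stretch of genome around the start site is shown for 3 integrin genes that 1 abemaciclib tumour set apart from every other tumour: the fibronectin receptor chain Itga5, the RGD-binding chain Itgav and their shared partner Itgb1. Each window of 300 bases runs 5′ to 3′ on the gene's strand, from 250 bases before to 50 after the RefSeq start site (GRCm38.p6), and capitals mark matches to the GC box GGGCGG on either strand. The windows are chr15:103366742-103367041 (minus strand) for Itga5, chr2:83724147-83724446 (plus strand) for Itgav and chr8:128685404-128685703 (plus strand) for Itgb1. RefSeq windows were at hand for 22 of the 40 genes.
Itga5: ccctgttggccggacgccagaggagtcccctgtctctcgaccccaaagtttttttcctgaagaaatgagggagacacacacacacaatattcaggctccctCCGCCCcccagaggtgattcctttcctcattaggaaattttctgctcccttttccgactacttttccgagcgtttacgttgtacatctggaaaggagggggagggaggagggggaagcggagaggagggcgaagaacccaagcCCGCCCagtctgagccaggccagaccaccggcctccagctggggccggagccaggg
Itgav: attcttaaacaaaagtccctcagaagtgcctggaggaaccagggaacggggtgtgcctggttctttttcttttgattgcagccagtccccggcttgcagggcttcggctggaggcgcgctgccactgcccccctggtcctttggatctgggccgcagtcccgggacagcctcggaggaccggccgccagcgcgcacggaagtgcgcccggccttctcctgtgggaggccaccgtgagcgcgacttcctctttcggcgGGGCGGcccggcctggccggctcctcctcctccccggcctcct
Itgb1: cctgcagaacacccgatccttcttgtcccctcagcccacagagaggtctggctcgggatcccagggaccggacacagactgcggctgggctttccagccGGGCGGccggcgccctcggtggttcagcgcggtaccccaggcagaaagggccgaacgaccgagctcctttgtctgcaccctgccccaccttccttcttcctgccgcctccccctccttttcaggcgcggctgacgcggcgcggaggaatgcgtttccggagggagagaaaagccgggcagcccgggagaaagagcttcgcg
The GC box matched at 2 places in the Itga5 window and at 1 place each in the Itgav and Itgb1 windows, and 35.7% of all 32851 RefSeq windows of this length held it. None of the 3 windows held any of the other 4 motifs searched on either strand. The TATA box, TATAAA, occurred in 13.6% of all windows and the CCAAT box, spelled as its name, in 37.4%. The E-box CAGGTG, to which the Snai and Zeb repressors bind, occurred in 20.2%, and the AP-1 motif TGANTCA in 7.81%. The counted matches did not overlap each other. These matches describe the letters of the windows and no binding was measured.

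The comparison of abemaciclib with vehicle asked whether the adhesion genes of established tumours differ under CDK4 and CDK6 inhibition. None of the 32 tested genes passed the threshold. By edgeR's quasi-likelihood test, 0 were higher and 0 lower at an adjusted p under 0.05, where 0% of the 2925 genes tested on the panel were called. Without adjustment, 2 genes lay higher at a p under 0.05, the leukocyte integrin chain Itgal and Itga5, and 0 lower, against 7.59% higher and 5.81% lower among all tested genes. With library totals alone in place of TMM scaling, 0 of the 32 were higher and 1 lower at that p, against 3.38% higher and 14.4% lower of all genes, with Itga5 at p = 0.0505 and Itgal at p = 0.0538 by edgeR. DESeq2's Wald test called 0 of the 32 at an adjusted p under 0.05, against 1.61% higher and 0.444% lower (2.05% together) of all genes. At an unadjusted p under 0.05 it had 3 higher, Itgal, Itga5 and Itgae, and 0 lower, against 8.58% higher and 5.61% lower of all genes. Limma-voom with quality weights likewise called 0, against 1.95% higher and 2.39% lower (4.34% together) of all genes. At an unadjusted p under 0.05 it had 2 higher, Itgal and Itga4, and 2 lower, Itgb3 and Dsc2, against 8.96% higher and 8.82% lower of all genes. The median log2 fold change was 0.08 over the 32 genes and 0.01 over all tested genes. Of the 32, 19 (59.4%) were above 0, beside 51.1% of all tested genes. The median over the 32 was 0.04 without abemaciclib tumour 3, -0.01 without abemaciclib tumours 3 and 10, and -0.04 with library totals alone, where that of all genes was -0.12. In 26 of the 32 (81.2%) the 95% interval of the change lay inside 2-fold either way, beside 87.8% of all tested genes. In 16 (50%) it lay inside 1.5-fold, beside 64.9% of all, so narrow intervals were less frequent among the 32. The 6 intervals that reached past 2-fold belonged to Itgal, Itga5, Itgae, Dsg3, Dsc2 and Cdh2. Values of abemaciclib and control tumours overlapped for each of the 32 genes, and 0% of all tested genes were without overlap.

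**Figure D1:**
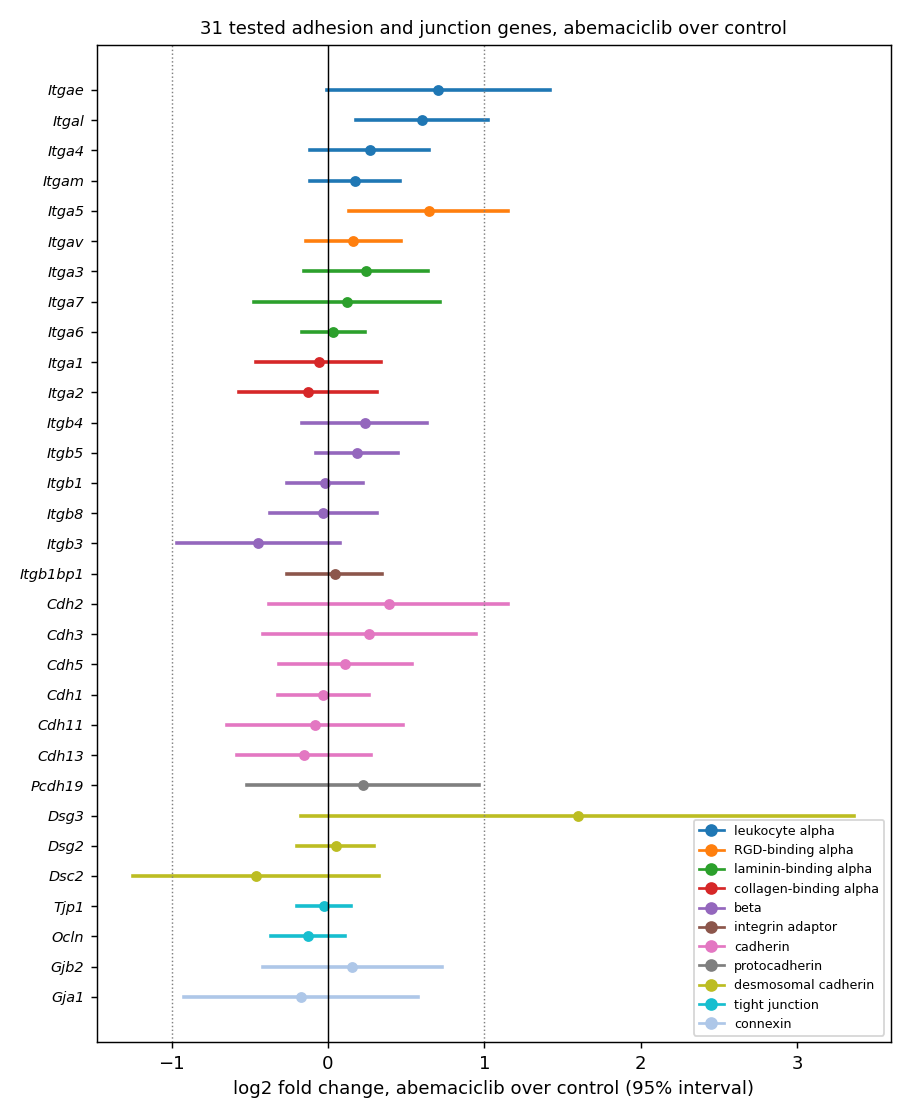
Log2 fold change of 31 tested genes, abemaciclib over control, as a point with its 95% interval as a bar, grouped and coloured by class, with dotted lines at a 2-fold change. Itgal and Itga5 have intervals above 0, Dsg3 has the widest interval, and the tight junction genes and Itgb1 have narrow intervals that include 0.

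The integrin chains of leukocytes are read first. All 4 tested chains had log2 fold changes above 0, from 0.17 to 0.71, and 0 of 4 passed the threshold. Itgal, the alpha chain of LFA-1, which binds ICAM-1 on other cells (chromosome 7, 127296260 to 127335138, mm10), lay at 7.24 CPM in the lowest, 16.6 in the median and 26.9 CPM in the highest abemaciclib tumour. In control tumours the lowest, median and highest were 4.86, 11.8 and 15.6 CPM. In 11 of 12 abemaciclib tumours Itgal was above the control median and in 7 it was above every control tumour, while abemaciclib tumour 7 was the exception at the low end. The means were 17.1 ± 5.38 CPM (SD, n = 12) in abemaciclib and 11.3 ± 3.52 CPM (SD, n = 11) in control tumours. The log2 fold change was 0.60 (95% interval 0.18 to 1.02, SE 0.205; edgeR p = 0.00707, adjusted p = 0.179). It had the smallest p of the 32 genes, at a fold of 1.52 and on 24 to 133 counts in abemaciclib and 19 to 72 in control tumours.

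Itgae, the chain that lets T cells and dendritic cells hold on to E-cadherin, lay at 0.642, 4.09 and 6.52 CPM (lowest, median and highest) in abemaciclib tumours, against 0, 2.25 and 3.87 CPM in control tumours. Its counts were low, 3 to 25 in abemaciclib and 0 to 19 in control tumours, and 6 of 12 abemaciclib tumours exceeded every control tumour. The log2 fold change was 0.71 (SE 0.347; edgeR adjusted p = 0.385). Itga4, which pairs with Itgb1 to bind VCAM-1, ranged over 9.07 to 20.5 CPM with a median of 13.3 in abemaciclib, against 6.45 to 18.1 CPM with a median of 10.8 in control tumours. Its log2 fold change was 0.27 (SE 0.184; edgeR adjusted p = 0.565). Itgam, the alpha chain of the complement receptor of myeloid cells, had nearly equal medians, 64.7 CPM in abemaciclib and 64.3 CPM in control tumours, in ranges of 46.8 to 98.2 CPM in abemaciclib and 37.2 to 83.4 CPM in control tumours. Its log2 fold change was 0.17 (SE 0.139; edgeR adjusted p = 0.629).

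The tested markers of macrophages, T cells and dendritic cells had log2 fold changes above 0 as well, with 0 of them past the threshold by edgeR. Of the 6 macrophage markers on the panel, 6 were above 0 with a median log2 fold change of 0.50, and their summed level was 1889 to 4540 CPM in abemaciclib and 1385 to 2944 CPM in control tumours. The 9 T cell markers on the panel summed to 14.8 to 81.9 CPM in abemaciclib and 11.2 to 58.2 CPM in control tumours, with 4 of 4 tested members above 0 and Cd28 at 0 in 7 tumours. The 4 dendritic cell markers on the panel summed to 62.0 to 167 CPM in abemaciclib and 43.4 to 94.7 CPM in control tumours. Of these, 2 were tested, Ly75 and Itgax, an integrin chain that the rule leaves out. The 6 neutrophil markers on the panel summed to 58.6 to 136 CPM in abemaciclib and 43.3 to 124 CPM in control tumours, with 3 of 4 tested members above 0. The 5 NK cell markers on the panel summed to 3.37 to 18.6 CPM in abemaciclib and 4.91 to 24.9 CPM in control tumours, with 2 of 2 tested members below 0 and Gzma at 0 in all 23. The 4 B cell markers on the panel summed to at most 3.21 CPM in abemaciclib and 1.63 CPM in control tumours. Itgb2, the beta chain that pairs with Itgal and Itgam and lies outside the rule, was at 88.4 ± 28.9 CPM in abemaciclib and 53.9 ± 16.2 CPM in control tumours, a log2 fold change of 0.71 (SE 0.174; edgeR adjusted p = 0.0651). The part of these cells in the values of Itgal was not tested. In tissue of mixed cells, more cells of a type and more RNA per cell cannot be told apart.

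Among the RGD-binding chains, Itga5, which forms the fibronectin receptor with Itgb1 (chromosome 15, 103344286 to 103366763), lay at 29.0, 68.1 and 226 CPM (lowest, median and highest) in abemaciclib tumours, against 39.3, 45.5 and 70.2 CPM in control tumours. Abemaciclib tumours spread to both sides of the controls, with 6 above the highest and 3 below the lowest control tumour. The log2 fold change was 0.64 (SE 0.247, 95% interval 0.14 to 1.15; edgeR p = 0.0151, adjusted p = 0.216). Without abemaciclib tumour 9, the one at 226 CPM, the log2 fold change was 0.37 (edgeR p = 0.0516, adjusted p = 0.329). Itgav, which pairs with several beta chains to bind vitronectin and latent TGF-beta (chromosome 2, 83724397 to 83806916), lay at 194, 459 and 704 CPM in abemaciclib tumours, against 286, 434 and 554 CPM in control tumours. In 10 of 12 abemaciclib tumours it was above the control median, yet its log2 fold change was 0.16 (SE 0.148; edgeR adjusted p = 0.670).

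**Figure D2:**
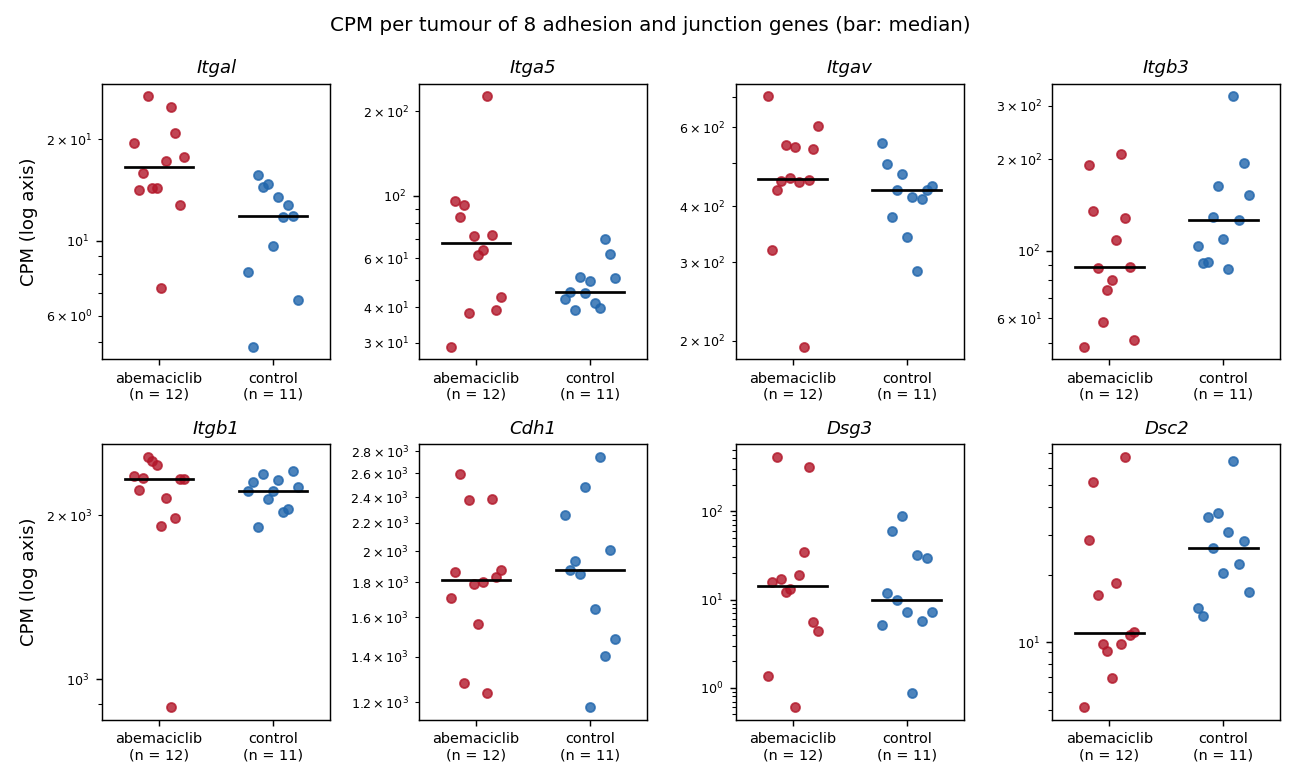
CPM on a log axis in each tumour (points) and the group median (bars) for 8 genes, abemaciclib left and control right. Abemaciclib tumour 9 is the single high point of Itga5 at 226 CPM and the single low point of Itgav at 194 CPM and of Itgb1 at 889 CPM, and 2 abemaciclib tumours stand above 300 CPM for Dsg3.

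Laminin-binding chains hold epithelial cells to the basement membrane. All 3 had log2 fold changes above 0, and 0 of 3 passed. That of Itga6 turned to -0.090 with library totals alone, and that of Itga7 to -0.091 with the replicate number as a block and to -0.11 without abemaciclib tumour 4. Itga6 lay within a narrow band, at 438, 589 and 686 CPM in abemaciclib tumours, against 435, 567 and 812 CPM in control tumours, and its log2 fold change was 0.04 (SE 0.0968, 95% interval -0.16 to 0.23; edgeR adjusted p = 0.911). Itga3, which also binds laminin at epithelial contacts, lay at 215, 450 and 886 CPM in abemaciclib tumours, against 307, 386 and 483 CPM in control tumours. The abemaciclib range was wider on both sides, with 4 tumours above and 4 below all controls, and the log2 fold change was 0.24 (SE 0.193; edgeR adjusted p = 0.621). Without abemaciclib tumour 3, the highest, it was 0.12, and without tumours 3 and 10 it was 0.0054. Tumours 3 and 10 were the highest of the group for Itga3, so leaving them out lowers its abemaciclib mean by construction. Itga7, a laminin receptor of muscle and other contractile cells, was at 12.1 to 123 CPM with a median of 39.1 in abemaciclib, against 19.6 to 69.0 CPM with a median of 41.7 in control tumours (log2 fold change 0.12, SE 0.290; edgeR adjusted p = 0.900). The collagen receptors Itga1 and Itga2 had log2 fold changes of -0.06 (SE 0.194) and -0.13 (SE 0.214), with medians of 81.3 and 60.1 CPM in abemaciclib and 85.9 and 69.6 CPM in control tumours.

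Of the 5 tested beta chains, 2 had log2 fold changes above 0 and 3 below, and those of Itgb1 and Itgb8, close to 0, turned above it under limma-voom. Itgb3, a beta chain of osteoclasts, platelets and activated endothelium (chromosome 11, 104608000 to 104670476), lay at 48.5, 88.4 and 208 CPM in abemaciclib tumours. In control tumours it lay at 87.5, 126 and 323 CPM. No abemaciclib tumour exceeded the control range and 5 lay below it, and the fitted log2 fold change was -0.45 (95% interval -0.97 to 0.07, SE 0.253; edgeR adjusted p = 0.459). Without control tumour 8, the one at 323 CPM, it was -0.26. Platelet markers lay the other way. Pf4 ranged over 5.47 to 24.9 CPM in abemaciclib and 2.31 to 14.5 CPM in control tumours (log2 fold change 0.70, SE 0.285; edgeR adjusted p = 0.248). Ppbp ranged over 1.12 to 10.5 CPM in abemaciclib and 0.256 to 3.51 CPM in control tumours (log2 fold change 1.48, SE 0.363; edgeR adjusted p = 0.0651). Their part in the values of Itgb3 was not tested.

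Itgb5, another partner of Itgav, lay at 346, 497 and 692 CPM in abemaciclib tumours, against 229, 441 and 518 CPM in control tumours (log2 fold change 0.19, SE 0.127; edgeR adjusted p = 0.560). Itgb4, whose long tail reaches keratin filaments, lay at 211, 349 and 708 CPM in abemaciclib tumours, against 220, 322 and 523 CPM in control tumours (log2 fold change 0.24, SE 0.194; edgeR adjusted p = 0.636). Itgb1, the partner of most alpha chains (chromosome 8, 128685654 to 128733200), was the least variable of the 32 genes in control tumours, with a biological coefficient of variation of 15.4%. It lay at 889, 2334 and 2561 CPM in abemaciclib tumours, against 1904, 2216 and 2411 CPM in control tumours. A single treated tumour, number 9, made the low end, and the next lowest was at 1913 CPM. The log2 fold change of Itgb1 was -0.02 (SE 0.119; edgeR adjusted p = 0.968), or 0.06 without that tumour. Itgb8, an Itgav partner that activates TGF-beta, and Itgb1bp1, an adaptor that binds the Itgb1 tail, had log2 fold changes of -0.03 (SE 0.166) and 0.05 (SE 0.148). Itgb8 ranged over 44.2 to 110 CPM in abemaciclib and 53.9 to 152 CPM in control tumours, and Itgb1bp1 over 47.2 to 135 CPM in abemaciclib and 59.9 to 126 CPM in control tumours.

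Of the 9 cadherins on the panel, 6 were tested and 0 passed, with log2 fold changes from -0.15 to 0.39. Cdh1, E-cadherin, which holds epithelial cells together (chromosome 8, 106603351 to 106670246), lay at 1241, 1815 and 2592 CPM in abemaciclib tumours, against 1181, 1875 and 2749 CPM in control tumours. The ranges nearly coincided, and the log2 fold change was -0.03 (SE 0.141, 95% interval -0.32 to 0.26; edgeR adjusted p = 0.957). Its lowest values, 1241 CPM in abemaciclib tumour 9 and 1181 CPM in control tumour 6, rested on 3284 counts in the abemaciclib and 3905 counts in the control tumour. The 11 luminal markers on the panel summed to 3972 to 11217 CPM in abemaciclib and 4138 to 8410 CPM in control tumours, and the epithelial marker Epcam was at 838 CPM or more in abemaciclib and 791 CPM or more in control tumours. Of the 11 luminal markers, Foxa1 was at 0 in 2 tumours and the others were above 0 in all 23.

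Cdh2, N-cadherin, found in mesenchymal and neural cells, was the most variable cadherin in control tumours, with a biological coefficient of variation of 58.4%. It lay at 7.52, 24.5 and 82.4 CPM in abemaciclib tumours, against 2.11, 18.4 and 55.1 CPM in control tumours (log2 fold change 0.39, SE 0.371; edgeR adjusted p = 0.684). Without abemaciclib tumour 4, the highest, it was 0.14. Cdh3, P-cadherin, lay at 27.6, 58.3 and 193 CPM in abemaciclib tumours, against 11.8, 62.2 and 112 CPM in control tumours (log2 fold change 0.26, SE 0.330; edgeR adjusted p = 0.769). Control tumour 8 held the lowest value of both, and the next lowest controls were at 12.7 CPM of Cdh2 and 27.9 CPM of Cdh3.

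Cdh5, VE-cadherin of the blood vessel wall, lay at 30.3, 55.9 and 132 CPM in abemaciclib tumours, against 31.3, 53.5 and 104 CPM in control tumours (log2 fold change 0.11, SE 0.206; edgeR adjusted p = 0.863). The 10 endothelial markers on the panel summed to 300 to 664 CPM in abemaciclib and 372 to 812 CPM in control tumours, in overlapping ranges. Cdh11, a cadherin of fibroblasts and other mesenchymal cells, lay at 16.7, 91.7 and 161 CPM in abemaciclib tumours, against 50.9, 91.8 and 165 CPM in control tumours. The medians nearly coincided, while 4 abemaciclib tumours lay below every control, and the log2 fold change was -0.08 (SE 0.274; edgeR adjusted p = 0.931). Cdh13, a cadherin anchored by a lipid and without a cytoplasmic tail, and the X-linked protocadherin Pcdh19 had log2 fold changes of -0.15 (SE 0.208) and 0.22 (SE 0.360). Cdh13 ranged over 8.48 to 44.2 CPM in abemaciclib and 17.0 to 41.3 CPM in control tumours, and Pcdh19 over 1.03 to 19.7 CPM in abemaciclib and 2.46 to 11.6 CPM in control tumours.

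Desmosomal cadherins included the gene that varied most among tumours. Dsg3, desmoglein 3, a protein of stratified and squamous epithelium, lay at 0.603, 14.3 and 413 CPM in abemaciclib tumours, against 0.878, 9.80 and 87.5 CPM in control tumours. Its biological coefficient of variation in control tumours, 92.6%, was the largest of the 32. Abemaciclib tumours 3 and 10, at 413 and 315 CPM, stood above all others. The fitted log2 fold change was 1.60 (SE 0.859, 95% interval -0.17 to 3.37; edgeR adjusted p = 0.433), and it turned to -0.94 without those 2 tumours. Dsc2, desmocollin 2 of simple and stratified epithelia, lay at 5.12, 10.9 and 67.0 CPM in abemaciclib tumours, against 13.0, 26.3 and 64.0 CPM in control tumours. In 7 of 12 abemaciclib tumours it was below every control tumour, and the highest 2 of the group were again tumours 3 and 10. The log2 fold change was -0.46 (SE 0.381; edgeR adjusted p = 0.640). Without control tumour 8 it was -0.27. Without abemaciclib tumours 3 and 10 it was -1.16 with an edgeR adjusted p of 0.0307. Since those are the 2 highest of the group for Dsc2 and for Dsg3, leaving them out lowers the abemaciclib mean of both by construction. Dsc2 was the 1 lower gene of the 32 called in that fit, with 0 higher, beside 2.09% of all genes lower and 1.09% higher. Dsg2, the desmoglein of simple epithelia, kept to 93.0, 187 and 266 CPM in abemaciclib tumours, against 130, 184 and 207 CPM in control tumours (log2 fold change 0.05, SE 0.120; edgeR adjusted p = 0.903). With Itgb1 at 15.4%, it was among the 3 least variable genes in control tumours, at 16.8%, while Dsg3, Cdh2, Gja1 at 51.4%, Gjb2 at 48.1% and Cdh3 at 47.2% were the 5 most variable.

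The tight junction genes Tjp1 and Ocln had narrow intervals around small changes, both below 0. Tjp1, which encodes the scaffold ZO-1, lay at 306, 359 and 400 CPM in abemaciclib tumours, against 289, 344 and 458 CPM in control tumours. Its log2 fold change was -0.02 (95% interval -0.20 to 0.15, SE 0.0830; edgeR adjusted p = 0.937). Ocln, occludin, a membrane protein of the tight junction strands, lay at 51.1, 72.6 and 85.6 CPM in abemaciclib tumours, against 60.8, 72.1 and 117 CPM in control tumours (log2 fold change -0.13, SE 0.116; edgeR adjusted p = 0.668). For both the 95% interval lay inside 1.5-fold in either direction.

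Connexins varied widely within both groups, and neither tested gene passed the threshold. Gja1, connexin 43, a channel of myoepithelial and stromal cells, lay at 90.9, 171 and 649 CPM in abemaciclib tumours, against 138, 216 and 901 CPM in control tumours. Control tumour 8 was the highest of all 23, and abemaciclib tumours 3 and 10 came next, at 649 and 541 CPM. The log2 fold change was -0.17 (SE 0.363; edgeR adjusted p = 0.885), and it turned to 0.18 without control tumour 8. Gjb2, connexin 26 of luminal and squamous epithelium, lay at 17.8, 36.3 and 84.5 CPM in abemaciclib tumours, against 8.42, 36.1 and 72.6 CPM in control tumours (log2 fold change 0.16, SE 0.278; edgeR adjusted p = 0.853).

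The 8 genes set aside by the filter on counts were at or near 0. The connexin Gjb1 had 0 to 8 counts in abemaciclib and 1 to 12 in control tumours, and the kidney cadherin Cdh6 had 0 to 17 in abemaciclib and 0 to 14 in control tumours. The cadherins Cdh4 and Cdh8, the protocadherins Pcdh8 and Pcdh11x, the connexin Gja6 and the integrin chain Itgb2l had at most 4 counts in any abemaciclib tumour and at most 4 in any control tumour. A count of 0 in a library of this depth does not show that a gene is silent.

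**Figure D3:**
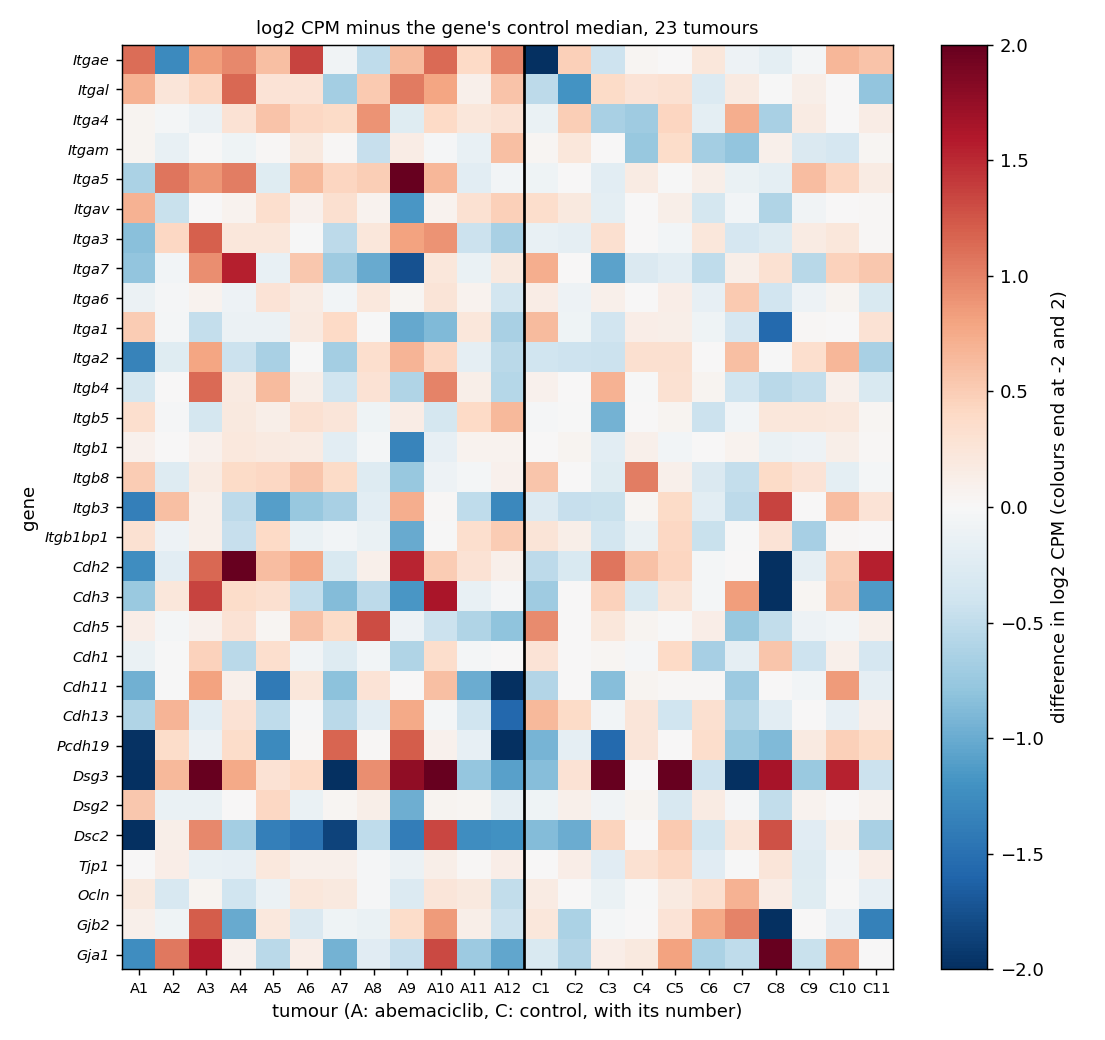
Difference in log2 CPM from the gene's control median (colour) for 31 genes (rows, ordered by class) in 12 abemaciclib (A) and 11 control (C) tumours (columns). Tumours A3 and A10 share high Dsg3, Dsc2, Itgb4, Cdh3 and Gja1, tumour A9 is low for Itgb1, Itgav and Dsg2, and tumour C8 is low for Cdh2, Cdh3 and Gjb2.

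Single tumours stood apart over several of these genes at once. Abemaciclib tumour 3 was outside the range of the control tumours for 10 of the 32 genes, with 17.6% of all tested genes. Tumour 10 was outside it for 8 of the 32, with 20.6% of all. Abemaciclib tumours 3 and 10 had 159 and 193 CPM of Cdh3, 708 and 639 CPM of Itgb4, 886 and 716 CPM of Itga3, and 84.5 and 65.4 CPM of Gjb2, each above every control tumour except Gjb2 in tumour 10. In the same tumours the 7 basal and myoepithelial markers on the panel, all of them tested and with a median log2 fold change of 0.75, had summed levels of 12861 and 9117 CPM, while the remaining 10 abemaciclib tumours ranged over 566 to 2737 CPM and control tumours over 823 to 5201 CPM. Keratin amplicons carried much of these sums. The highest abemaciclib values were 9147 CPM of Krt14 and 2869 CPM of Krt5, against 3016 and 1492 CPM in control tumours. Those of Acta2, Myh11 and Mylk were 959, 178 and 12.3 CPM, against 792, 83.1 and 11.6 CPM in control tumours. The sums do not show that each of the 7 was raised. The part of these markers in the values of Dsg3, Dsc2, Cdh3, Itgb4, Itga3, Gja1 and Gjb2 was not tested. Without the 2 tumours, Cdh3 was at a log2 fold change of -0.21, Gjb2 at -0.12 and Itgb4 at -0.01, all turned in sign. Tumours 3 and 10 were the highest 2 of the group for each, so leaving them out lowers the abemaciclib mean by construction.

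Abemaciclib tumour 9 had 9 of the 32 genes below the range of the 11 control tumours and 6 above it. Of all 2925 tested genes, 43.7% lay outside that range in the same tumour. It had the fewest counts of all libraries, 2756919, and its fibroblast markers, 7 on the panel, summed to 19778 CPM, against 2780 to 6286 CPM in control tumours. Its 11 luminal markers summed to 11217 CPM, against 4138 to 8410 CPM in control tumours, and 9 housekeeping genes to 78639 CPM, against 22268 to 49688 CPM in control tumours. Abundant amplicons carried much of the fibroblast and housekeeping sums. The highest abemaciclib value of Actb was 60414 CPM and of Col1a1 10347 CPM, against 37907 and 3375 CPM in control tumours. Gapdh reached 60.6 CPM in abemaciclib and 60.3 CPM in control tumours. The sums do not show that each gene of a list was raised. The part of these sums in the values of the adhesion genes was not tested. Itga5 at 226 CPM was beyond the next highest tumour of either group, at 96.0 CPM, and Itgb1 at 889 CPM was below the next lowest, at 1904 CPM. Abemaciclib tumours 12 and 1 were outside the control range for 17 and 13 of the 32 genes, with 32.6% and 32.1% of all tested genes, and tumour 8 for 3, with 14.3% of all. In control tumour 8, the lowest of its group for 8 of the 32 genes, Cdh2 was at 2.11 CPM, Cdh3 at 11.8 CPM and Gjb2 at 8.42 CPM, while Gja1 was at 901 CPM and Itgb3 at 323 CPM.

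Whether chains that assemble with each other, or genes of a common cell type, vary together was examined in 10 pairs for which both genes were tested, separately in each group. Of these 20 relations, 3 had a Benjamini-Hochberg adjusted p under 0.05 for Pearson's r of log2 CPM (permutation tests, two-sided), and 1 of them also for Spearman's rho. Other pairs of panel genes were not examined, so no share over them stands beside these counts. It is not known whether partner genes differ from them. The relation called by both was Itgav with Itgb3, the chains of 1 receptor, which ran in opposite directions across the 12 abemaciclib tumours. Pearson's r was -0.88 (permutation p = 2.00e-05, adjusted p = 4.00e-04) and Spearman's rho was -0.94 (permutation p = 9.00e-05, adjusted p = 0.00180). The tumour highest in Itgav, number 1 at 704 CPM, was lowest in Itgb3 at 48.5 CPM, and the tumour lowest in Itgav, number 9 at 194 CPM, was highest in Itgb3 at 208 CPM. Leaving out these 2, which lay farthest from the Itgav median, gave an r of -0.89 (permutation p = 5.20e-04), and leaving out each tumour in turn gave -0.91 to -0.85. In control tumours r was -0.49 (permutation p = 0.126, adjusted p = 0.361) and rho was -0.17, and without control tumours 1 and 8 r was 0.26, of the opposite sign. The difference between the groups was not tested. With library totals alone in place of TMM, r in abemaciclib tumours was -0.65 with an adjusted p of 0.0733 by permutation.

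Itgav and Itgb8 were positively related in abemaciclib tumours, with r = 0.78 (permutation p = 0.00352, adjusted p = 0.0343) and rho = 0.69 (adjusted p = 0.0877 by permutation). With library totals alone r was 0.73 with an adjusted p of 0.150 by permutation. The relation rested on few tumours, since without tumours 1 and 9 r was 0.43 (permutation p = 0.223), and r was 0.54 without tumour 9 alone. In control tumours r was 0.16 (permutation p = 0.628, adjusted p = 0.764). Dsc2 and Dsg2 were opposed in control tumours, with r = -0.76 (permutation p = 0.00514, adjusted p = 0.0343) and rho = -0.71 (adjusted p = 0.0877 by permutation). Without control tumours 2 and 8 r was -0.49 (permutation p = 0.181), so this relation too rested on them. With library totals alone it was -0.16 (permutation p = 0.644, adjusted p = 0.757). In abemaciclib tumours r was -0.12 (permutation p = 0.687, adjusted p = 0.764). Itga6 and Itgb4, the laminin receptor pair, had r = 0.68 (permutation p = 0.0146, adjusted p = 0.0730) in abemaciclib and 0.29 (permutation p = 0.387, adjusted p = 0.553) in control tumours. Itga5 and Itgb1 had r = -0.71 (permutation p = 0.0261, adjusted p = 0.104) in abemaciclib tumours, which became -0.11 without tumours 1 and 9, and 0.30 in control tumours. The other 5 pairs, Itgav with Itgb5, Itga4 with Itgb1, Cdh2 with Cdh11, Itga1 with Cdh5 and Tjp1 with Ocln, had adjusted p for Pearson's r of 0.176 or more by permutation in both groups.

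**Figure D4:**
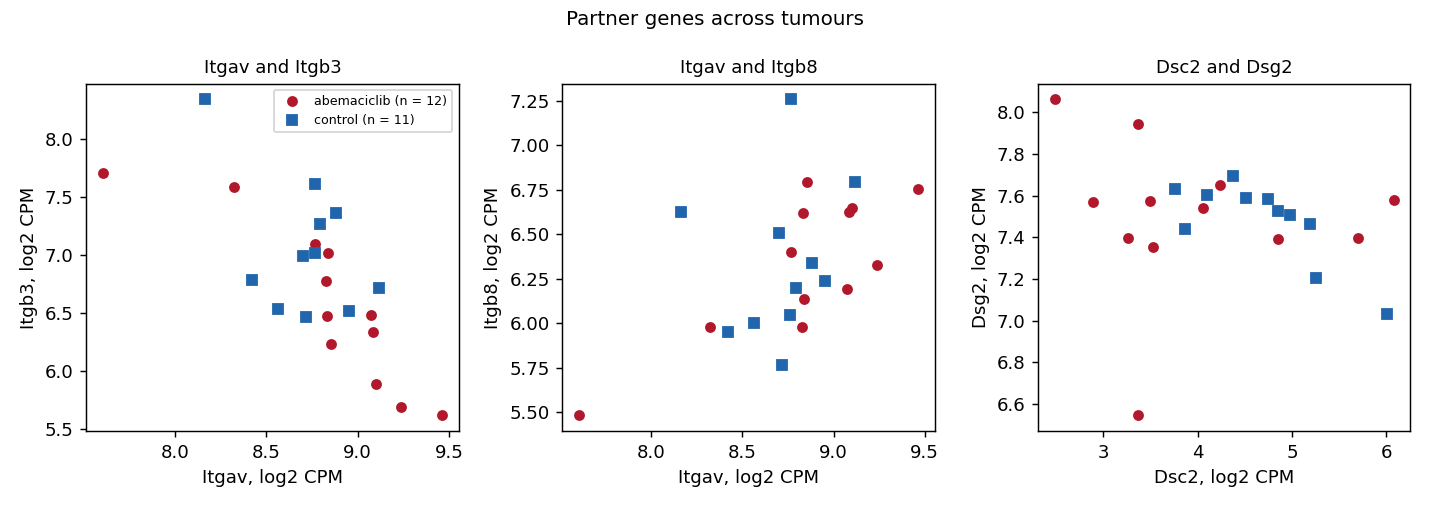
Log2 CPM of 3 pairs of partner genes, each point a tumour (circles abemaciclib, squares control). Itgb3 falls as Itgav increases over the 12 abemaciclib tumours (r = -0.88), while the relations of Itgav with Itgb8 and of Dsc2 with Dsg2 lean on the points at the ends.

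Genes that act beside these receptors were read from lists of their families, with 0 of them past the threshold by edgeR in either direction. Of the catenin and nectin list, 7 of 19 were on the panel and 6 tested, 2 above and 4 below 0. Ctnna1, the catenin that links cadherins to actin, was at -0.14 (SE 0.109; edgeR adjusted p = 0.610) and Pvr, a nectin relative, at 0.20 (SE 0.170; edgeR adjusted p = 0.652). Of the desmosome plaque list, Dsp, desmoplakin, was at 0.51 (SE 0.447; edgeR adjusted p = 0.660) and Perp, a membrane protein of desmosomes, at 0.39 (SE 0.371; edgeR adjusted p = 0.683). Their medians ran the other way, at 132 CPM of Dsp in abemaciclib and 167 CPM in control tumours, and at 298 CPM of Perp in abemaciclib and 406 CPM in control tumours. Together they summed to 2316 and 2618 CPM in abemaciclib tumours 3 and 10, to at most 1118 CPM in the other abemaciclib tumours and to at most 931 CPM in control tumours. Of 8 further tight junction genes tested, 6 were below 0, led by the polarity kinase Prkci at -0.31 (SE 0.0959; edgeR p = 0.00305, adjusted p = 0.127) and Amot at -0.25 (SE 0.154; edgeR adjusted p = 0.507).

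Of 14 focal adhesion genes, which connect integrins to actin and to kinases, 6 were above and 8 below 0. Ptk2b, a kinase related to focal adhesion kinase, was at 0.41 (SE 0.146; edgeR p = 0.0102, adjusted p = 0.196), and Flna, the actin cross-linker filamin A, at -0.14 (SE 0.105; edgeR adjusted p = 0.612). Of 25 tested integrin ligands, 16 were above and 9 below 0 with a median of 0.10. The smallest p belonged to the cell-surface ligands Vcam1, bound by Itga4, at 0.84 (SE 0.224; edgeR adjusted p = 0.0872) and Icam1, bound by Itgal, at 0.49 (SE 0.137; edgeR adjusted p = 0.0985). Of 8 tested regulators of the epithelial-mesenchymal transition, 5 were above and 3 below 0. Snai1, a repressor of Cdh1, was at -0.35 (SE 0.220; edgeR adjusted p = 0.509) and Zeb2, another, at 0.24 (SE 0.164; edgeR adjusted p = 0.565).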

How the data were processed

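Amplicon counts were measured in 23 mouse mammary tumours, 12 abemaciclib and 11 control, grouped by their titles. Per the labels' protocols, total RNA was extracted from frozen tissue and amplified with a custom Ion AmpliSeq panel of 3826 genes. The authors deposited unnormalized counts per gene. Their notes on processing name the build mm10 (the submitters' processing notes). Which aligner and counter they used, and where each amplicon lies, is not given in the sources used here. Reads carry no molecular identifiers, so copies made in amplification could not be removed by them. SEs and intervals come from the spread between tumours. Itgb2 and the 3 genes with printed promoter windows were chosen after their values were seen. A few single-gene results are not reported here.

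The test was edgeR 4.0.16 under R 4.3.3: filterByExpr left 2925 genes, libraries were scaled by TMM, and glmQLFit and glmQLFTest (two-sided) were run over all of them with Benjamini-Hochberg adjustment at 0.05. The 40 genes and the lists were chosen with earlier results of these data known. Values in each group are given for the 14 genes with the smallest p, for a fixed list, and for the 5 most and 3 least variable genes in control tumours. Variability is edgeR's biological coefficient of variation, fitted to control tumours alone. Pairs were tested on log2 CPM (prior count 2) with 100000 permutations, adjusted over 20 relations. Gene positions are from GENCODE M21 (GRCm38, the assembly of mm10), which matched 40 of 40 symbols. DESeq2 1.42.0, limma 3.58.1, other scalings, other filters, a replicate block and fits without single tumours were tried. The fit and the pair test were tested on simulated data.

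Tumours of both groups share the numbers 1 to 11, and the labels do not say that the numbers pair them. Correlations of same-numbered tumours' deviations ran from -0.43 to 0.45, with 5 of 11 over 0.1. Of these 11 abemaciclib tumours, 2 correlated best with the control of their own number. Such correlations cannot exclude a link between same-numbered tumours.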

Additional observations from a re-analysis of the deposited data

How the results depend on the processing

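Of 1085 refits of single genes, 1048 kept direction and side, 36 turned direction over 17 genes whose changes were small or rested on few tumours, and 1 passed the threshold. Calls over all genes numbered 0, against 1 with library totals alone, 60 with DESeq2, 127 with limma-voom, 93 without abemaciclib tumours 3 and 10, and 0 to 47 leaving out each tumour (47 without abemaciclib tumour 10, 30 without 2, 10 without 3, 9 without control tumour 6). Among the 32 genes 0 were called except 1, Dsc2, without tumours 3 and 10. With the replicate number as a block 0 genes were called, as without it. That fit used the tumours numbered 1 to 11, so abemaciclib tumour 12 was left out as well. Library totals alone moved the median of all genes to -0.12 and turned Dsg2 to -0.081, Itga6 to -0.090 and Itgb1bp1 to -0.11. Limma-voom turned Dsg3 to -0.042, Itgb1 to 0.026, Itgb8 to 0.020 and Pcdh19 to -0.099. The replicate block turned Itga7 to -0.091 and Itgb1bp1 to -0.0198. Leaving out tumours 3 and 10 turned Cdh3 to -0.21, Dsg3 to -0.94, Gjb2 to -0.12, Itga1 to 0.027 and Itgb4 to -0.012. Both were the highest of their group for Cdh3, Dsg3, Gjb2 and Itgb4, whose abemaciclib means fall by construction without them. Leaving out each tumour in turn gave -0.083 to 0.031 for Cdh1, -0.21 to 0.050 for Cdh11, -0.054 to 0.24 for Cdh5, -0.0076 to 0.11 for Dsg2, -0.39 to 0.18 for Gja1 and -0.16 to 0.027 for Itga1. It gave -0.0039 to 0.098 for Itga6, -0.11 to 0.21 for Itga7, -0.044 to 0.056 for Itgb1, -0.0077 to 0.11 for Itgb1bp1, -0.079 to 0.090 for Itgb8 and -0.052 to 0.017 for Tjp1. Of partner pairs 3 were called, against 1 with library totals alone (Itga6 with Itgb4 in abemaciclib tumours, r = 0.84), 1 without the 2 farthest tumours, and 1 to 4 leaving out each tumour, an alternative added after seeing the data. The causes were not tested. Counts under about 25 per tumour limit Itgae, and 8 genes lay too low to test.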
